A study of Mus musculus with 5 samples.

Results

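The 8 genes described here are Klra1, Klra4, Klra6, Klra7, Klra8 and Klra9, which encode the Ly49 receptors A, D, F, G, H and I, together with Klre1 and Klrd1 from the same gene complex. They were taken by name from the 31253 genes of the matrices. All 8 were found, and they were followed in the 2 kidney libraries for which a matrix was used, each of which is 1 library of 1 group. The first came from wild-type male mice 14 days after unilateral ureteral obstruction, an operation in which the left ureter is tied and cut so that the kidney scars. The second came from male mice of the strain B6.Cg-Pdcd1tm1.1Shr/J, in which the PD-1 gene is targeted, 3 days after the same operation. Mice of both groups were 8 to 10 weeks old, and the number of mice in a library is not given in the labels. Genotype, day after surgery and library change together between these 2 groups and cannot be told apart. The series holds 5 libraries, and counts of a wild-type kidney library at day 3 were not used here. Single cells were captured on the BD Rhapsody system, which counts unique molecular identifiers (UMIs, 1 per captured RNA molecule).

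Ly49 receptors are C-type lectin-like proteins through which mouse natural killer (NK) cells read classical MHC class I molecules on other cells. Each NK cell turns on its own assortment of the genes, and both inhibitory and activating members exist. Inhibitory members carry a tail motif that recruits phosphatases, whereas the activating Ly49D and Ly49H lack it and signal through the adaptor DAP12, encoded by Tyrobp. CD94, encoded by Klrd1, pairs with the NKG2 proteins of the Klrc genes and reads the non-classical molecule Qa-1, and the product of Klre1 pairs with those of Klri1 and Klri2.

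All 8 genes lie on chromosome 6 of the mouse genome build GRCm38, in the GENCODE M21 annotation, and are protein coding. The 6 Ly49 genes sit on the minus strand within 373.841 kb, from Klra6 (130013033 to 130026954) through Klra4 (130043731 to 130067271), Klra8 (130115226 to 130129898), Klra9 (130178675 to 130193112) and Klra7 (130218605 to 130233322) to Klra1 (130363917 to 130386874). Klre1 (129577905 to 129585827) and Klrd1 (129591782 to 129598775) lie next to each other on the plus strand. The Ly49 genes are close copies, and their starts show it. RefSeq start regions on GRCm38.p6 (250 bases before to 50 after a start) were found for 7 of the 8 genes, and 5 of them share the 11 bases TTTCCTCTTTT. The 90 bases around that word are shown because they place the activating pair Klra4 and Klra8 beside the inhibitory genes. Capitals mark the shared word, and each sequence reads 5′ to 3′ on the minus strand.
Klra4, chr6:130067301-130067390: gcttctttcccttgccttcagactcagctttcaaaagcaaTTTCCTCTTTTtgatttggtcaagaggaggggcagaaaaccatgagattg
Klra8, chr6:130129929-130130018: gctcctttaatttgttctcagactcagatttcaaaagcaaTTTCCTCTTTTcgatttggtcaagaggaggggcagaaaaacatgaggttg
Klra6, chr6:130027024-130027113: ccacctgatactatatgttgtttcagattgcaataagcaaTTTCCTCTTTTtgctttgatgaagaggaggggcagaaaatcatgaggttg
Klra9, chr6:130193101-130193190: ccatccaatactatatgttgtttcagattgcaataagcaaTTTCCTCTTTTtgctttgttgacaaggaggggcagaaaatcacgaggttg
Klra7, chr6:130233362-130233451: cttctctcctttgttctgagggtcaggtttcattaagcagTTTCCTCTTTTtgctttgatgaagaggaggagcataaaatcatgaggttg
Compared base by base without gaps, Klra4 and Klra8 were identical at 87.8% of positions and Klra6 and Klra9 at 92.2%, whereas the other 8 pairs shared 62.2% to 74.4%. The word was not in the windows of Klra1 or Klre1, and on either strand it was found in 49 of 32544 RefSeq start regions (0.151%). It was chosen because these members share it, and a match is a description of letters only.

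Near-identical copies also limit the counts. Of the 50-base words in the last 400 bases of each transcript, 46.4% in Klra9, 35.3% in Klra7, 15.7% in Klra8 and 3.13% in Klra6 occur in another gene. The share was 0% in Klra1, Klra4, Klre1 and Klrd1. The labels do not say how reads that match several genes were counted, so the split between Klra9, Klra8 and the non-members Klra3 and Klra10 is uncertain, as is the count of Klra7 beside the pseudogene Klra13-ps.

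After filters, 5212 of 5282 cells of the wild-type library (median 1824 UMIs) and 6960 of 7007 of the knockout-labelled library (median 2064.5 UMIs) were kept. Pdcd1, the targeted gene, was at 126.7 CPM (UMIs of a gene over all UMIs, scaled to 1000000) in the wild-type library and 189.6 CPM in the knockout-labelled library, beside 50.5 and 46.9 CPM in the 2 intestinal libraries. Its RNA was thus not lower in the library labelled knockout. These are levels over all kept cells, of which CD8 T cells made up 9.23% and 28.4% in the kidney libraries. The part of this difference was not tested. The deleted part of the allele is not given in the labels, and RNA from outside it would still be counted, so the second library is called knockout-labelled throughout. The labels give the cells as innate lymphoid cells, but the gates for T cells, set on CD3 genes, took many of them. Cells were classed by gates on raw UMIs that used no member gene. They gave 133 and 140 NK cells (wild-type and knockout-labelled library, in that order here and below), 441 and 699 type 1 innate lymphoid cells (ILC1), 481 and 1974 CD8 T cells, 169 and 98 T cells with Trdc (the gamma-delta receptor constant gene), and 1746 and 803 other T cells, in which no Trdc, Cd8a or Cd8b1 UMI was found. Type 2 innate lymphoid cells (ILC2, 461 and 613 cells) and B cells (77 and 75 cells) served as classes that should lack the genes. A further 1243 and 1733 cells met no gate. Of the marker genes outside the gates, the granzyme Gzma, listed for NK cells, was at 4121 and 4829 CPM in NK cells against 121 and 76.3 CPM in ILC1. Tmem176b, listed for ILC1, was at 94.4 and 74.2 CPM in NK cells against 583 and 840 CPM in ILC1. The other NK and ILC1 markers outside the gates are not given. Of the kidney barcodes of the wild-type day 14 library, 25 also occurred in the wild-type day 3 library and 24 in each intestinal library.

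Among the 5 gated classes, Ly49 RNA was concentrated in NK cells and was next highest in Trdc T cells. Cells that fell between the NK and ILC1 gates, given below, also stood above Trdc T cells in both libraries. The UMIs of the 6 Ly49 genes summed to 3339 CPM in NK cells of the wild-type library and 3495 CPM in those of the knockout-labelled library. In Trdc T cells the sum was 467 and 220 CPM, in other T cells 216 and 121 CPM, in ILC1 213 and 84.6 CPM, and in CD8 T cells 92.9 and 39.2 CPM. ILC2, which should lack these receptors, gave 9.78 and 21.1 CPM. B cells gave 14.7 and 6.08 CPM, on 2 and 1 UMIs. The order of the 5 classes was the same in both libraries. Neighbours in it were apart beyond their counting intervals, except other T cells and ILC1 of the wild-type library, whose 95% intervals (200 to 231 and 183 to 246 CPM) overlap. All intervals given here are exact and cover counting error only. With 1 library per group there is no replicate, and no difference was tested.

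**Figure D1:**
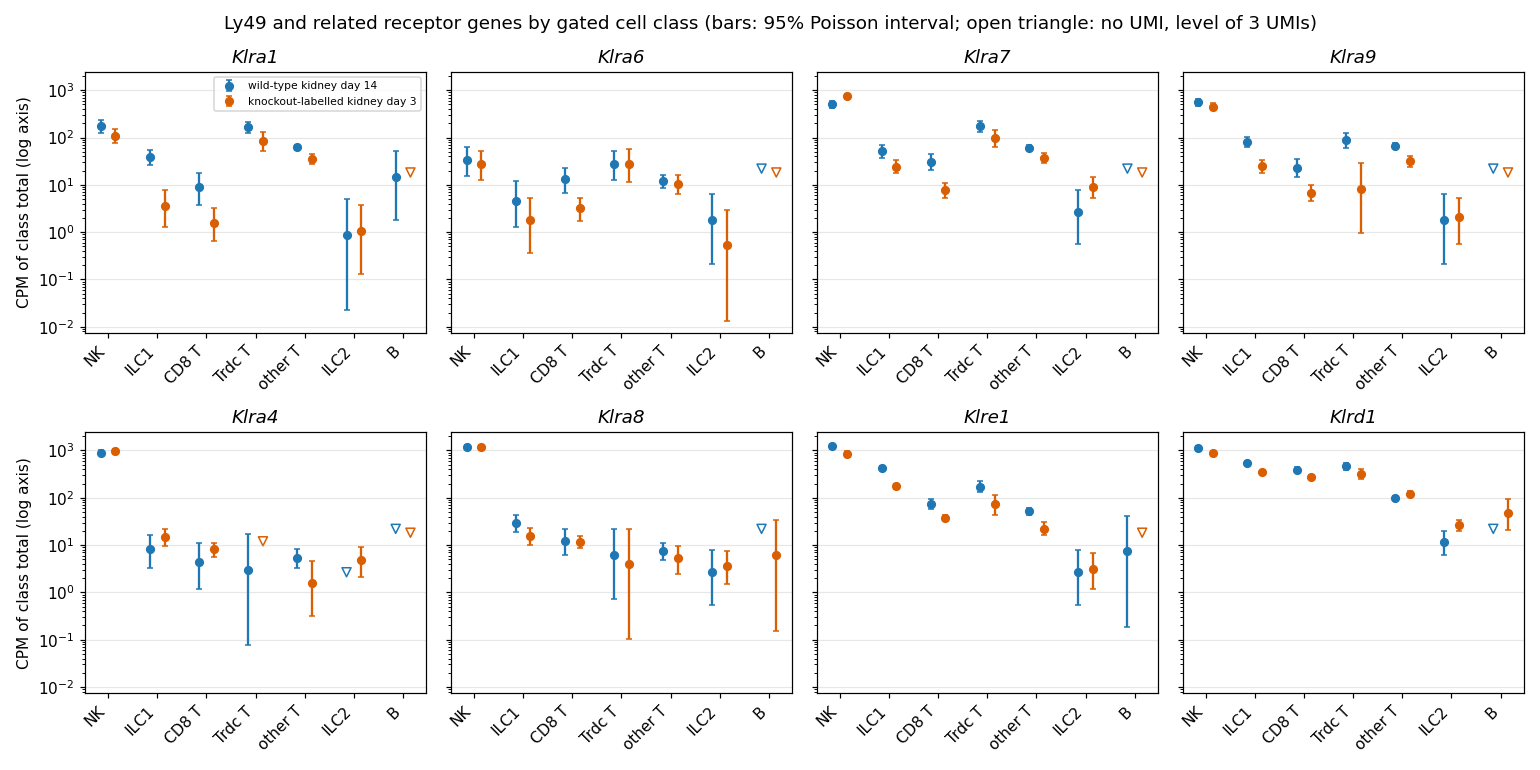
CPM of each member in the summed UMIs of each gated class, on a log axis, for the wild-type day 14 library (blue) and the knockout-labelled day 3 library (orange), with 95% Poisson intervals. Open triangles stand at the level of 3 UMIs where none was counted. NK cells hold the top value of every member in both libraries, apart from Klra6 in the knockout-labelled library, where NK and Trdc T cells stand at 27.8 and 28.0 CPM.

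The activating receptors were the most NK-restricted. Klra8, whose product Ly49H is known for recognising a protein of mouse cytomegalovirus, stood at 1182 CPM (1055 to 1321) in wild-type NK cells and 1208 CPM (1091 to 1334) in knockout-labelled NK cells. Its highest level in another of the 5 classes was 28.9 CPM in ILC1 of the wild-type library and 15.4 CPM in ILC1 of the knockout-labelled library. Klra4, whose product Ly49D binds the class I molecule H-2Dd, stood at 899 CPM (788 to 1021) and 958 CPM (854 to 1071) in NK cells. In the other 4 classes it ranged from 3.03 to 8.10 CPM in the wild-type library, and from no UMI in Trdc T cells to 14.8 CPM in ILC1 in the knockout-labelled library. For both genes the NK value thus stood far outside the range of the other classes in each library.

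The inhibitory receptors were also highest in NK cells but were shared with T cells. Klra7 (Ly49G) was at 499 and 748 CPM in NK cells, and at 176 and 96.1 CPM in Trdc T cells. Klra9 (Ly49I) was at 551 and 445 CPM in NK cells, 87.9 and 8.01 CPM in Trdc T cells and 82.1 and 24.8 CPM in ILC1. A single wild-type Trdc T cell held 11 of its 29 UMIs there, and without that cell the level was 54.9 CPM. The knockout-labelled Trdc T value rests on 2 UMIs of 1 cell. Klra1 (Ly49A) stood at like levels in NK and Trdc T cells, at 174 CPM (127 to 232) in NK cells and 167 CPM (126 to 217) in Trdc T cells of the wild-type library, and at 108 CPM (75.3 to 150) and 84.1 CPM (52.1 to 129) in the knockout-labelled library. In both libraries the intervals of NK and Trdc T cells overlap for this gene. Klra6 (Ly49F) was sparse, with 9 UMIs in the NK cells of each library (34.0 and 27.8 CPM) and 9 and 7 UMIs in Trdc T cells (27.3 and 28.0 CPM). A single knockout-labelled Trdc T cell held 5 of those 7 UMIs, and without it the level was 8.11 CPM.

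The partner chains were spread more widely. Klrd1 stood at 1114 and 874 CPM in NK cells, 545 and 343 CPM in ILC1, 457 and 320 CPM in Trdc T cells, 395 and 279 CPM in CD8 T cells and 97.8 and 122 CPM in other T cells. Klre1 stood at 1228 and 859 CPM in NK cells, 423 and 176 CPM in ILC1, 173 and 72.1 CPM in Trdc T cells, 74.1 and 37.8 CPM in CD8 T cells and 51.5 and 22.4 CPM in other T cells. ILC1 thus came next after NK cells for both partner chains, although for Klrd1 the intervals of ILC1 and Trdc T cells overlap in each library. Klri2, one of the partners of Klre1, was at 869 and 562 CPM in NK cells and 221 and 224 CPM in ILC1. Klri1, the other, had no UMI in wild-type NK cells and was at 6.18 CPM in knockout-labelled NK cells.

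NK cells and ILC1 were then compared as the 2 innate classes that share Ncr1 and Klrb1c. A gene entered when both sums together held at least 30 UMIs, and was counted when its CPM differed at least 1.5-fold. Of the 7 members that entered, all except Klra6, 7 of 7 were higher in NK cells in each library and 0 lower. Of all genes compared, 10.2% of 5501 were higher and 16.1% lower in the wild-type library, and 11.7% of 6887 higher and 16.4% lower in the knockout-labelled library. The log2 ratio of the Ly49 sum was 3.97 (3.74 to 4.21) in the wild-type library and 5.37 (5.12 to 5.63) in the knockout-labelled library. Klra4 had a log2 ratio of 6.79 (5.73 to 8.12) and 6.02 (5.43 to 6.67), and Klra8 of 5.35 and 6.30. Klrd1 was nearest to parity, at 1.03 (0.82 to 1.24) and 1.35 (1.14 to 1.56). The members' median log2 ratio was 2.75 and 4.93, beside -0.03 and -0.01 over all genes compared.

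Other genes of the complex did not follow the members as a group. Of the 12 other receptors listed, 8 could be compared in the wild-type library, where 2 were higher in NK cells and 3 lower. In the knockout-labelled library 9 could be compared, with 2 higher and 2 lower. The inhibitory NKG2A gene Klrc1 was lower in NK cells (510 against 1044 CPM, and 553 against 894 CPM), whereas the NKG2C gene Klrc2 was higher (374 against 192 CPM, and 377 against 140 CPM). Klra3 (Ly49C), the one gene of 10 other Ly49 genes with enough UMIs, had log2 ratios of 3.07 and 3.63. Only 5 of those 10 had a row in the matrices. Of 11 adaptors and phosphatases, 5 were higher in NK cells in each library, with 0 and 1 lower, and Tyrobp was at 1949 against 840 CPM and 1681 against 652 CPM. Of 8 MHC class I genes, the family of the Ly49 ligands, 0 were higher in each library and 1 and 0 were lower.

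Some cells with NK or ILC1 genes fell between these gates. In cells with both Eomes and ILC1 genes (45 and 98 cells) the Ly49 sum was 2075 and 683 CPM. In cells without Eomes but with Itga2 or S1pr5 (63 and 71 cells) it was 1063 and 657 CPM, and in cells without Eomes and with few ILC1 genes (130 and 127 cells) it was 1185 and 814 CPM. All 6 values lie between those of the NK and ILC1 classes. The activating genes Klra4 and Klra8 made up 47.8% (40.3 to 55.3) of the UMIs of the 6 Ly49 genes in knockout-labelled cells with both Eomes and ILC1 genes, and 56.0% to 66.0% in the other 5 sets.

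Most NK cells carried a Ly49 gene, and many carried more than 1. For shares of cells at equal depth, 1000 UMIs were drawn from every cell, which set aside 6 and 2 NK cells with fewer. After thinning, 78.0% (69.7 to 84.8) of 127 wild-type and 76.8% (68.9 to 83.6) of 138 knockout-labelled NK cells had a UMI of at least 1 Ly49 gene, and 48.8% (39.9 to 57.8) and 47.8% (39.3 to 56.5) had at least 2. Without thinning the shares were 83.5% and 84.3% for at least 1 gene, and 61.7% and 63.6% for at least 2. At least 3 genes were seen in 24.4% and 11.6% of thinned NK cells, but in 30.1% and 32.1% without thinning, and the thinned intervals (17.2 to 32.8 and 6.77 to 18.1) overlap slightly. Among the unthinned NK cells, 31 and 30 of the 63 possible combinations of the 6 genes were seen, and the commonest combination was held by 9 of 133 cells (Klra4 with Klra8, and also Klra9 alone) and by 18 of 140 cells (Klra7 alone). No UMI of any of the 6 genes was seen in 22 NK cells of each library. The Ly49 RNA of NK cells was therefore spread over many combinations, none of which was held by most cells.

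Shares of NK cells with each gene followed the same lines. After thinning, Klra4 was found in 40.2% (31.6 to 49.2) and 33.3% (25.5 to 41.9) of NK cells and Klra8 in 38.6% and 37.0%. Klra7 was found in 31.5% (23.5 to 40.3) and 39.9% (31.6 to 48.5), Klra9 in 33.9% (25.7 to 42.8) and 21.7% (15.2 to 29.6), Klra1 in 9.45% and 5.80%, and Klra6 in 3.15% and 2.90%. For each of these 6 genes the intervals of the 2 libraries overlap. Klre1 was found in 69.3% (60.5 to 77.2) and 50.7% (42.1 to 59.3) of NK cells, where the intervals do not overlap, and Klrd1 in 57.5% and 58.7%. Without thinning, Klre1 was found in 85.0% and 75.0% and Klrd1 in 78.9% and 79.3%. An unthinned NK cell with Klra8 held 5.13 and 5.75 of its UMIs on average, and 1 cell held up to 17 and 28, whereas an ILC2 with any Ly49 gene held at most 1 or 2 UMIs of it. Positive NK cells thus differed from the background cells in the number of UMIs as well as in their share.

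Few ILC1 carried a Ly49 gene. After thinning, 8.72% (6.24 to 11.8) of wild-type and 4.34% (2.94 to 6.13) of knockout-labelled ILC1 had a Ly49 UMI, and unthinned 11.1% and 7.15%. The knockout-labelled interval overlaps that of ILC2 in the same library, whose share was 2.67%. Klra9 was the gene found in most wild-type ILC1 (27 of 441 cells), while in the knockout-labelled library Klra7 and Klra9 were each found in 17 of 699 cells. The partner chains were far more frequent there, with Klrd1 in 38.1% and 28.0% and Klre1 in 27.8% and 14.6% of thinned ILC1. Gzma and Trac, expressed by NK and T cells, were higher beside Ly49 within the class. In wild-type ILC1 with a Ly49 UMI (49 cells), Gzma was at 369 against 91.0 CPM in those without, Trac at 200.4 against 67.6 CPM and Trdc at 116 against 20.8 CPM. In knockout-labelled ILC1 (50 cells with a Ly49 UMI) Gzma was at 409 against 50.9 CPM and Trac at 217 against 137 CPM, while Trdc was at 16.7 against 25.5 CPM. Their part in the Ly49 levels of ILC1, and in the difference between the libraries, was not tested.

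**Figure D2:**
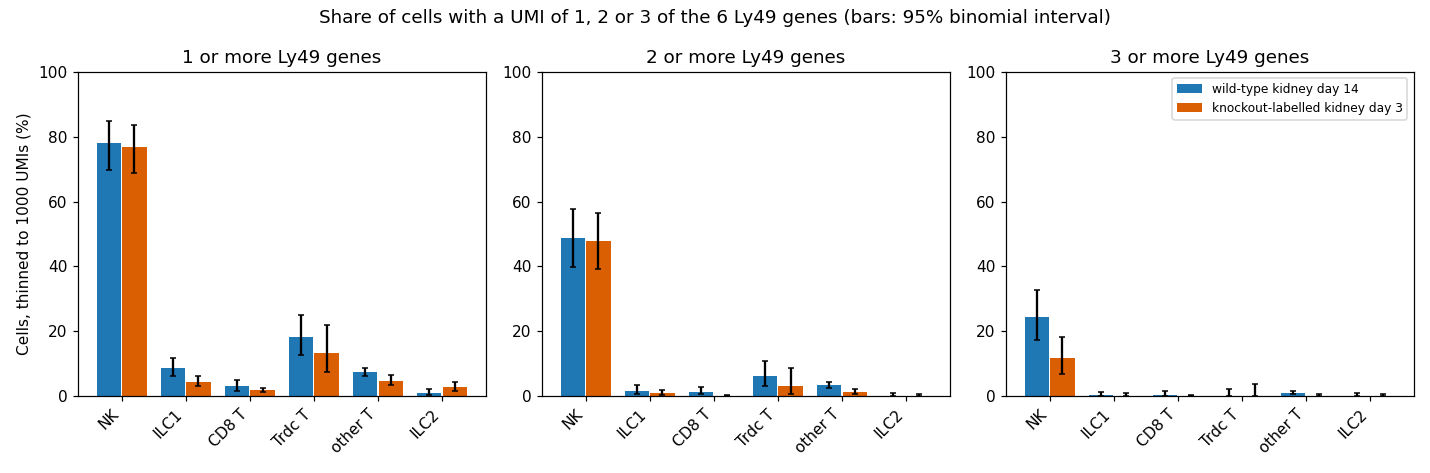
Percent of cells, each thinned to 1000 UMIs, with a UMI of at least 1, 2 or 3 of the 6 Ly49 genes, by class and library, with 95% binomial intervals. NK cells reach 78.0% and 76.8% for at least 1 gene and Trdc T cells 18.3% and 13.4%, whereas ILC2 stand at 0.89% and 2.67%.

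Within NK cells the pairs of the 4 frequent Ly49 genes lay on both sides of the product of their shares. Over the 6 pairs of Klra4, Klra7, Klra8 and Klra9 the ratio ran from 0.96 to 1.34 in the wild-type library and from 0.73 to 1.31 in the knockout-labelled library. Klra4 and Klra8 were found together in 37 cells of each library, 1.34 times the product of 27.5 cells in the wild-type library and 1.31 times the product of 28.2 cells in the knockout-labelled library. Klra7 and Klra9 were found together in 22 and 16 cells, 1.08 and 0.73 times the product. Klra4 and the inhibitory NKG2A gene Klrc1 were found together in 20 cells of each library, 0.67 times the product in both. For Klra8 and Klrc1 the counts were 19 and 28 cells, 0.63 and 0.80 times the product, a range that takes in the 0.73 of Klra7 with Klra9. Thinned cells gave 1.42 and 1.24 for Klra4 with Klra8, and 0.65 and 0.63 for Klra4 with Klrc1. These ratios rest on cells of 1 library each, have no interval and are given as descriptions.

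The T cell classes differed from NK cells in which Ly49 genes they carried. Shares here are of the UMIs of the 6 Ly49 members, which leave out Klra3 (Ly49C), at 302 and 278 CPM in NK cells. Counting it would lower the share of the activating genes. The activating genes Klra4 and Klra8 made up 62.3% (59.0 to 65.5) of the UMIs of the 6 genes in wild-type NK cells and 62.0% (59.1 to 64.8) in knockout-labelled NK cells. In Trdc T cells they made up 1.95% (0.40 to 5.59) of 154 UMIs and 1.82% (0.05 to 9.72) of 55 UMIs. In other T cells the share was 5.94% (4.36 to 7.86) of 758 UMIs and 5.60% (3.02 to 9.39) of 232 UMIs. Of the 6 genes, both of these T cell classes therefore held almost only inhibitory RNA, in each library. ILC1 were at 17.4% and 35.7%, and CD8 T cells at 17.9% (10.4 to 27.7) and 50.9% (43.2 to 58.5), where the 2 libraries were apart beyond counting error. In ILC2 of the knockout-labelled library, taken as background, the share was 40% (24.9 to 56.7) of 40 UMIs.

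**Figure D3:**
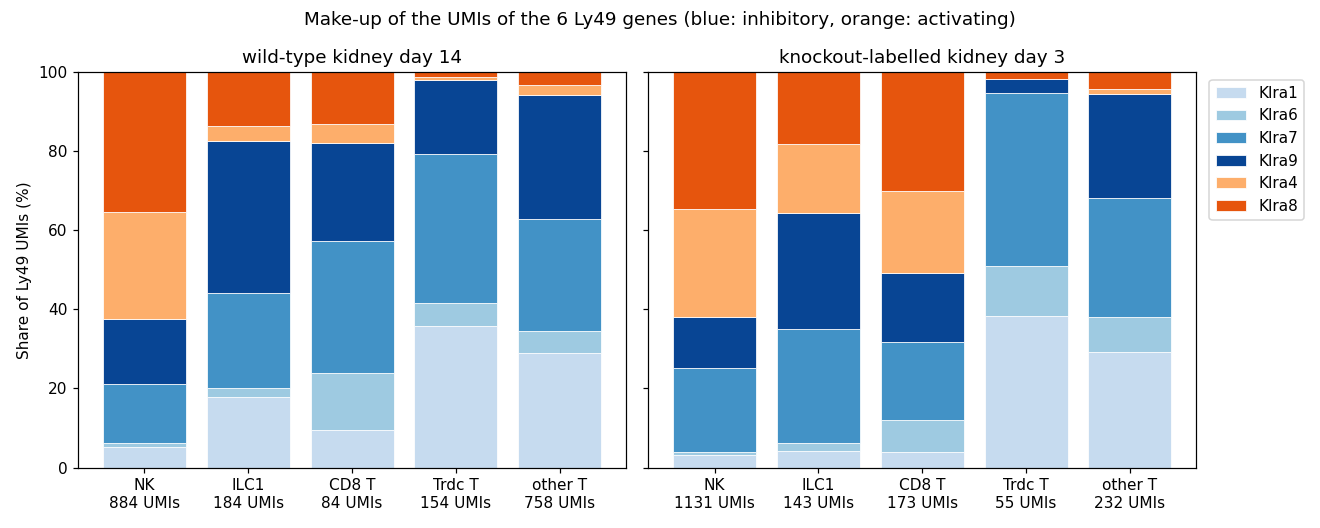
Percent of the summed UMIs of the 6 Ly49 genes in a class that came from each gene, in the wild-type day 14 library (left) and the knockout-labelled day 3 library (right), with the number of UMIs under each bar. Blue shades are inhibitory and orange shades activating receptors. The orange part is 62.3% and 62.0% in NK cells and under 6% in Trdc T and other T cells.

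Trdc T cells had the largest share of Ly49-bearing cells among T cells. After thinning, 18.3% (12.7 to 25.1) of 164 wild-type and 13.4% (7.33 to 21.8) of 97 knockout-labelled cells had a Ly49 UMI, and without thinning 25.4% and 20.4%. The same measure in ILC2 was 0.89% and 2.67% thinned, or 2.39% and 6.36% unthinned, with a median depth of 2340 and 2918 UMIs against 1839 and 2393.5 in Trdc T cells. Klra1 and Klra7 were each found in 23 of 169 wild-type cells and in 11 of 98 knockout-labelled cells. The 2 genes were found together in 9 wild-type cells, 2.88 times the product of their shares, and in 3 knockout-labelled cells, 2.43 times the product. Against other T cells of the same library, 5 of 6 members that could be compared were higher in Trdc T cells of the wild-type library and 0 lower (background 10.3% higher and 18.8% lower). In the knockout-labelled library 4 of 5 were higher and 1 lower (background 9.68% and 18.5%), the lower being Klra9 (8.01 against 31.8 CPM). Its level in Trdc T cells rests on 2 UMIs of 1 cell, and the interval of the log2 ratio was -5.07 to -0.07. Of the 23 genes on the list set beside Ly49 in T cells, 20 and 21 could be compared, of which 12 and 5 were higher in Trdc T cells and 3 and 3 lower.

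Ly49 RNA was lowest in CD8 T cells among the 5 classes, and few of them carried it. After thinning, 3.03% (1.67 to 5.03) of wild-type and 1.86% (1.31 to 2.57) of knockout-labelled CD8 T cells had a Ly49 UMI, and unthinned 4.99% and 4.05%. The knockout-labelled share lies below the ILC2 share of that library (2.67% thinned, 6.36% unthinned), so the share alone does not set it apart from background. The levels did stand above those of ILC2, at 92.9 CPM (74.1 to 115) against 9.78 CPM (4.88 to 17.5) and 39.2 CPM (33.6 to 45.5) against 21.1 CPM (upper bound 28.7). In the knockout-labelled library part of this gap came from 1 cell, given below. Unthinned, 9 of 481 wild-type CD8 T cells (1.87%, 0.86 to 3.52) held at least 2 Ly49 genes. In the knockout-labelled library 11 of 1974 did (0.56%, 0.28 to 0.99). Among ILC2 the counts were 0 of 461 and 0 of 613, with upper bounds of 0.80% and 0.60%. For this measure the knockout-labelled intervals overlap. Median depths of the CD8 T class were 1729 and 1963 UMIs. The wild-type thinned share with at least 1 Ly49 gene lies above that of ILC2 (0.89%, 0.24 to 2.26), with intervals that overlap. A single knockout-labelled CD8 T cell held 20 of the 36 Klra4 UMIs of its class. Without that cell Klra4 stood at 3.63 CPM in place of 8.16, and the activating share at 41.2% (32.8 to 49.9) of the UMIs of the 6 Ly49 genes. The Ly49 sum was then 30.9 CPM on 136 UMIs, close to the ILC2 upper bound of 28.7 CPM. No interval was computed for that sum, so without that cell the knockout-labelled level is not set apart from ILC2. The Ly49-positive CD8 T cells of the knockout-labelled library also had less Cd3e (771 against 1334 CPM) and Cd8a (666 against 1231 CPM) than its other CD8 T cells, and the part of mixed cells in this was not tested. Against other T cells, of 7 members compared in the wild-type library 2 were higher and 3 lower in CD8 T cells (background 9.77% and 15.9%), and of 8 in the knockout-labelled library 4 were higher and 4 lower (background 8.33% and 10.5%). Klra4 was among the higher, and without the cell named above both sums together hold fewer than 30 of its UMIs. Klrd1 was among the higher in both libraries, with log2 ratios of 2.01 and 1.19 (0.99 to 1.40).

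Among other T cells, Ly49 RNA sat in a small set of cells, in which inhibitory genes were found together above the product of their shares. After thinning, 7.34% (6.14 to 8.69) of wild-type and 4.65% (3.28 to 6.38) of knockout-labelled cells had a Ly49 UMI, and unthinned 8.48% and 7.60%, at median depths of 1927 and 2139 UMIs. The wild-type interval lies above that of ILC2 (0.24 to 2.26), and the knockout-labelled interval overlaps that of its own ILC2. Klra1 and Klra7 were found together in 50 wild-type cells where the product of their shares gives 3.74, a ratio of 13.4, and in 12 knockout-labelled cells against 0.77, a ratio of 15.5. Klra1 and Klra9 were together in 38 and 8 cells, 10.6 and 13.3 times the product, and Klra7 and Klre1 in 50 and 11 cells, 11.3 and 12.1 times. In thinned cells the Klra1 and Klra7 ratio was 14.8 and 13.2. Of the Ly49-positive other T cells, 62 of 148 wild-type and 39 of 61 knockout-labelled cells nonetheless held only 1 Ly49 gene. The pairs were thus found together far above the product, unlike the same pairs in NK cells, where Klra1 with Klra7 gave 1.19 and 1.23. A class that mixes cells with and without the receptors gives ratios above 1 by its construction.

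The Ly49-bearing cells in that class were mostly cells without a Cd4 UMI. The Ly49 sum was 285 and 163 CPM in other T cells with no Cd4 UMI (1278 and 546 cells), and 27.4 and 30.8 CPM in those with one (468 and 257 cells). It was 48.7 and 46.6 CPM in cells with Zbtb16, the gene of a transcription factor of innate-like T cells. In cells with Foxp3, the regulatory T cell gene, 3 UMIs were found in 117 wild-type cells and 0 in 17 knockout-labelled cells.

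Other T cells with a Ly49 UMI (148 and 61 cells) differed from those without in genes of NK-type signalling and cytotoxicity. The adaptor gene Fcer1g was at 1158 against 30.6 CPM in the wild-type library and 596 against 102 CPM in the knockout-labelled library. Tyrobp was at 233 against 10.9 CPM and 149 against 47.8 CPM, and Klre1 at 508 against 7.48 CPM and 154 against 8.63 CPM. All 3 genes were therefore higher beside Ly49 in each library. Klrd1 had log2 ratios of 4.76 (4.42 to 5.12) and 2.23 (1.82 to 2.64), the chemokine gene Xcl1 of 4.68 and 1.13, Ly6c2 of 4.81 and 1.41, Gzma of 4.94 and 2.14, and Il2rb, a chain of the interleukin-15 receptor, of 1.76 and 0.56. Cd4 (-2.85 and -1.97) and the chemokine receptor gene Cxcr6 (-1.34 and -0.99) were lower beside Ly49. Cd3e, which the gate itself requires in part, was at 1187 against 1419 CPM and 855 against 1048 CPM, and Trac at 1500 against 1759 CPM and 1004 against 1657 CPM. Both T cell genes were thus somewhat lower beside Ly49, and the part of mixed cells was not tested. Pdcd1 was lower beside Ly49 in the wild-type library (55.0 against 195 CPM), while in the knockout-labelled library the interval of its log2 ratio, -0.76 to 0.46, includes 0.

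**Figure D4:**
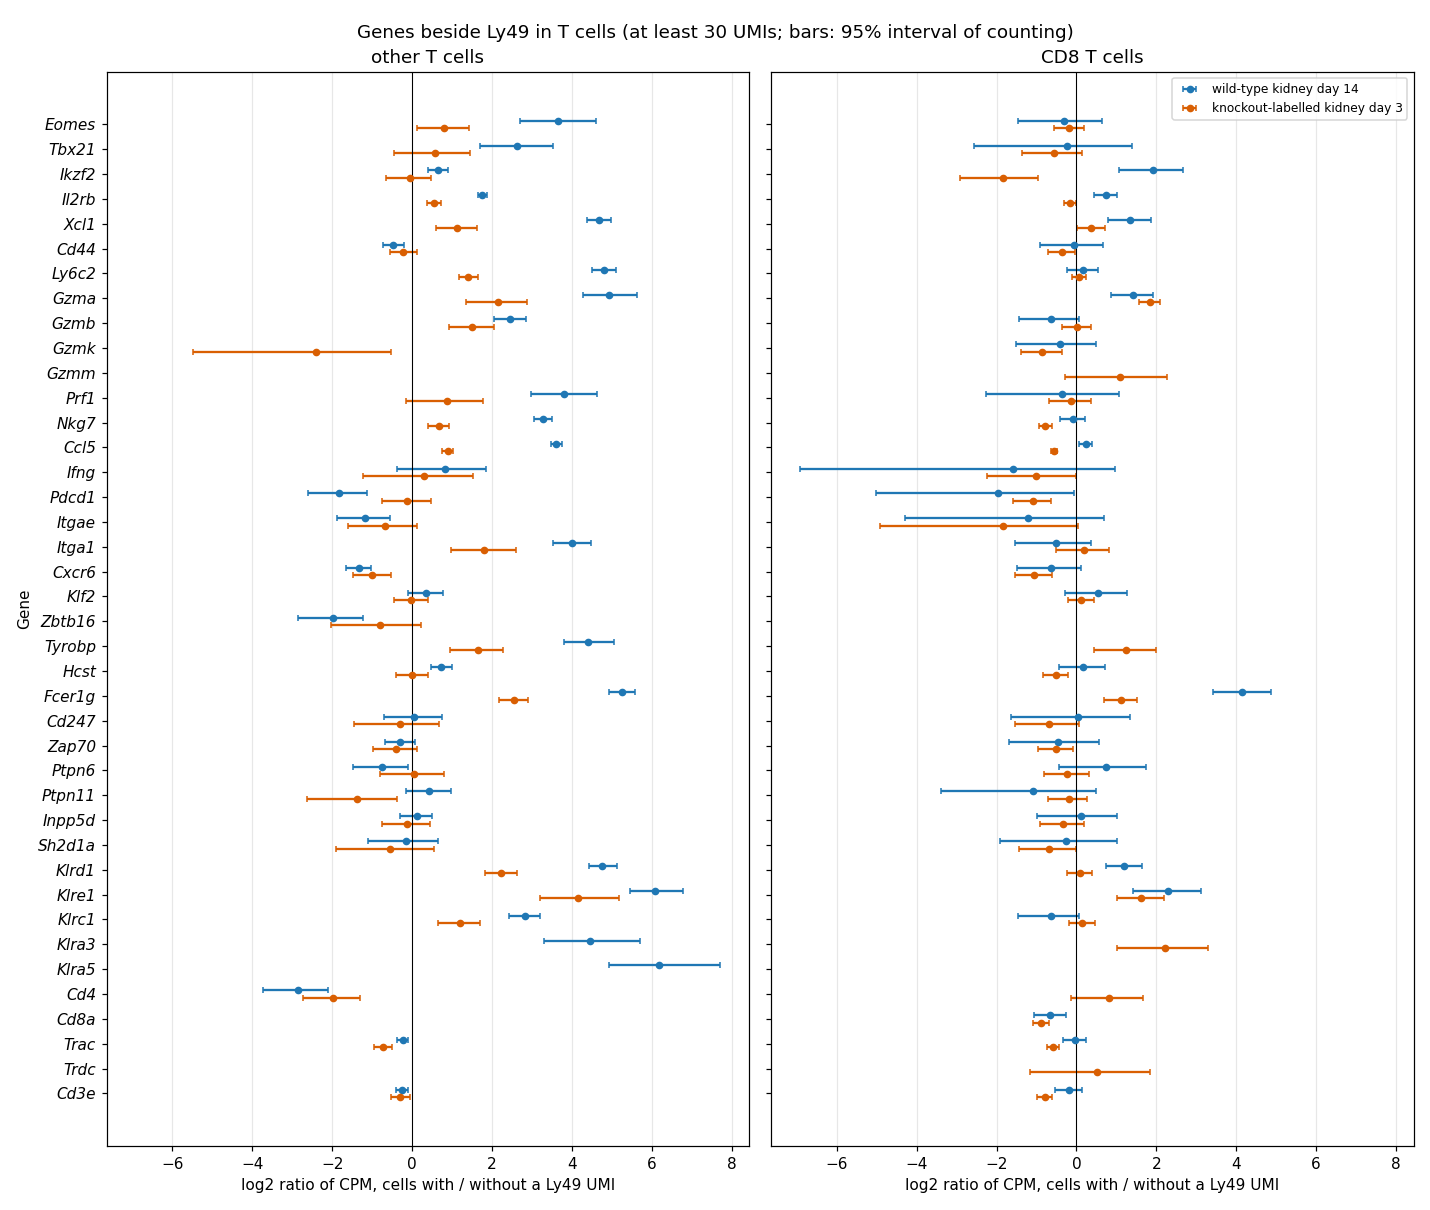
Log2 ratio of CPM between cells with and without a Ly49 UMI, for other T cells (left) and CD8 T cells (right), in the wild-type day 14 library (blue) and the knockout-labelled day 3 library (orange), with 95% intervals of counting. Listed genes with at least 30 UMIs and a UMI on each side are drawn. In other T cells Fcer1g, Tyrobp, Klre1 and Klrd1 lie to the right of 0 in both libraries and Cd4 and Cxcr6 to the left.

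Between the libraries, the Ly49 sum in NK cells was nearly equal, while each of the other 4 classes had less in the knockout-labelled day 3 library. In NK cells the log2 ratio of the knockout-labelled to the wild-type library was 0.07 (-0.06 to 0.19). It was -1.33 (-1.66 to -1.01) in ILC1, -1.24 (-1.63 to -0.85) in CD8 T cells, -1.08 (-1.55 to -0.63) in Trdc T cells and -0.83 (-1.05 to -0.62) in other T cells. ILC2 ran the other way, with 9.78 CPM in the wild-type and 21.1 CPM in the knockout-labelled library. At 1.5-fold, 1 of 7 members was lower in NK cells (Klra1, background 8.98%) and 0 higher (background 8.87%). In ILC1, 6 of 7 were lower (background 9.08%) and 1 higher (Klra4, 8.10 and 14.8 CPM, background 7.75%). In CD8 T cells 3 of 6 were lower (background 8.94%) and 1 higher (Klra4, 4.42 and 8.16 CPM, background 11.6%). Both higher values of Klra4 rest on few UMIs. The cell with most Klra4 UMIs was left out in each library, an alternative chosen after seeing the data. Klra4 then stood at 3.48 and 8.88 CPM in ILC1 (3 and 15 UMIs). In CD8 T cells it stood at 2.22 and 3.63 CPM (2 and 16 UMIs). Without these cells, neither class held the 30 UMIs needed for a comparison. In Trdc T cells 4 of 5 were lower (background 13.7%) and 0 higher (background 9.03%), the lower including Klra9 with 29 and 2 UMIs. In other T cells 4 of 7 were lower (background 11%) and 0 higher (background 7.63%). These 5 comparisons use the same 2 libraries.

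**Figure D5:**
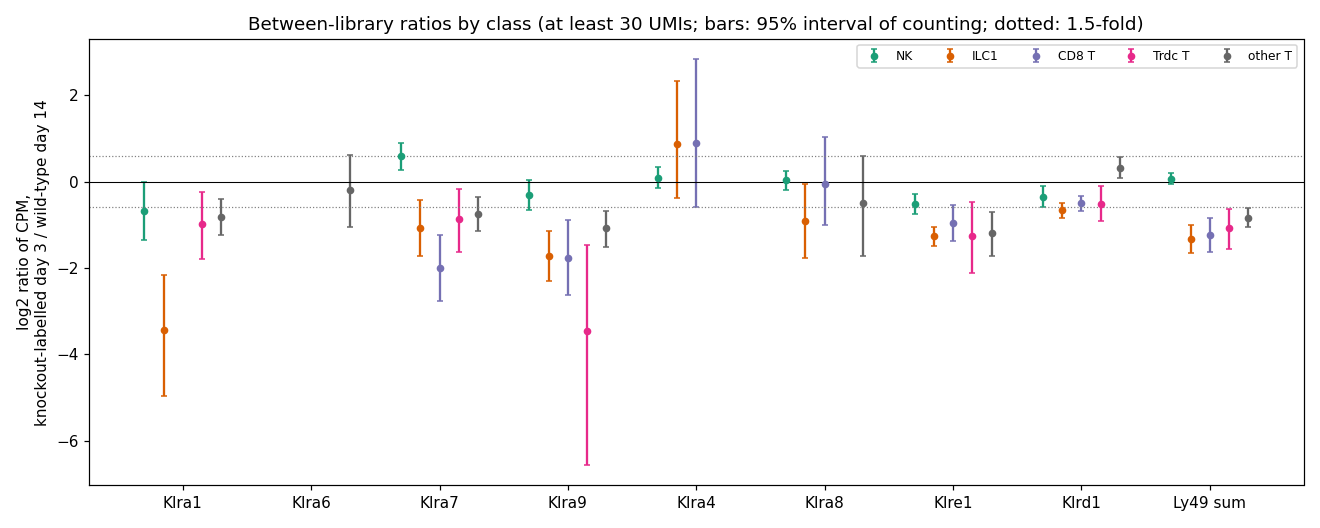
Log2 ratio of CPM, knockout-labelled day 3 over wild-type day 14, for each member and the Ly49 sum in 5 classes, with 95% intervals of counting. Values are drawn where both sums together hold at least 30 UMIs, and dotted lines mark 1.5-fold. The NK value of the sum lies at 0.07 and those of the other classes between -1.33 and -0.83.

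Single members differed in size. Klra1 in ILC1 went from 33 UMIs in 441 wild-type cells to 6 UMIs in 699 knockout-labelled cells, a log2 ratio of -3.43 (-4.97 to -2.15). The 33 UMIs came from 11 cells and the 6 from 3 cells, so few cells set these values. Klra7 had a log2 ratio of 0.58 (0.27 to 0.90) in NK cells, just under 1.5-fold, and of -2.01 to -0.75 in the other classes. Klre1 was lower in all 5 classes, from -0.52 in NK cells to -1.27 in ILC1, whereas Klrd1 was lower in 4 classes, from -0.67 to -0.35, and higher in other T cells, at 0.32 (0.07 to 0.56).

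Across the 14 sums of 7 classes and 2 libraries, the genes with the pattern most like the Ly49 sum were sought among 3160 genes by Pearson correlation of log2(CPM + 10). The first 10 were Lta4h, Brk1, Klra3, Klre1, Tln1, Mmd, Jak1, Cracr2a, Reep5 and Klrc2, with r from 0.93 to 0.89. Of these, 3 belong to the same gene complex: the Ly49C gene Klra3, the member Klre1 and the NKG2C gene Klrc2. Klrd1 ranked 47 (r = 0.81) and Klrc1 ranked 225 (r = 0.68). The correlation does not weigh the size of a difference: Brk1 stood at 212 and 226 CPM in NK cells and at 200 and 166 CPM in other T cells. The 14 points share 2 libraries and their depth, and reads shared with near-identical genes bear on Klra3.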

How the data were processed

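The deposited matrices hold raw UMI counts per gene and cell. CASAVA 1.8, UMI-tools, Seurat and the build mm10 are named in the submitters' processing notes, and these sources do not give the aligner, annotation or cell calling. The wild-type day 14 matrix was read with the gene order of the knockout-labelled library, since summed counts correlated at r = 0.992 in that order and 0.209 when shifted by 1 row. Cells with at least 500 UMIs, 250 genes and at most 20% mitochondrial UMIs were kept. T cells had at least 3 CD3 UMIs, CD8 T and Trdc T cells at least 2 UMIs of their genes, and group 1 cells at most 1 CD3 UMI and at least 3 UMIs over Ncr1, Klrb1c, Xcl1, Tbx21 and Fcer1g, with at least 1 of the first pair. NK cells had at least 1 Eomes UMI and at most 1 UMI over Il7r, Cxcr6, Itga1 and Cd200r1, and ILC1 no Eomes, Itga2 or S1pr5 UMI and at least 2 UMIs over those 4 genes. Counts were summed per class and given as CPM. Intervals are exact at 95% (Poisson, Clopper-Pearson, conditional binomial) and cover counting error only. The ratio step was tested on simulated data. Scrublet (scanpy 1.11.5) called 6 and 0 cells, too few to have worked, so doublets were not removed. The genes named are the members, the first 10 by likeness and genes of fixed lists (other Ly49 genes, other receptors of the complex, adaptors and phosphatases, MHC class I, genes set beside Ly49 in T cells). Members, gates and lists were chosen with earlier results of these data known. Python 3.11.15, numpy 2.4.6, scipy 1.17.1 and pandas 2.3.3 were used. A gene of the last list is not reported here.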

Additional observations from a re-analysis of the deposited data

Results flagged for a closer look

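The intestinal libraries, labelled as group 3 innate lymphoid cells and used in no comparison above, held few Ly49 UMIs. The Ly49 sum was 2.29 CPM (19 UMIs) in the sham library and 0.72 CPM (10 UMIs) in the library 3 days after obstruction. Klre1 was at 4.70 and 2.39 CPM, and Klrd1 at 28.7 and 22.7 CPM. These values were singled out because they exceed the level of 3 UMIs in data outside the main comparisons.

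For 2 members the ratio between the kidney libraries took opposite signs in different classes, and the difference between classes was not tested. Klra7 had a log2 ratio of the knockout-labelled to the wild-type library of 0.58 in NK cells, but -1.07 in ILC1, -2.01 in CD8 T cells, -0.87 in Trdc T cells and -0.75 in other T cells. Klrd1 had a log2 ratio of 0.32 in other T cells, but -0.35 in NK cells, -0.67 in ILC1, -0.50 in CD8 T cells and -0.51 in Trdc T cells.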

How the results depend on the processing

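The 9 main values were taken again under other gates, cell filters, doublet or depth settings. Only the NK to ILC1 log2 ratio of each library could be called reversed, and neither was. Shares of cells have no direction, and the interval of the NK ratio between libraries includes 0. Of the 72 alternative values, 61 stayed within the counting interval of the main value, while 11 left it. Leaving out Scrublet doublets could move little, since only 6 and 0 cells were called. The knockout-labelled NK to ILC1 log2 ratio of 5.37 became 5.66 with stricter and 4.95 with looser gates. The share of NK cells with at least 2 Ly49 genes was 32.3% in the wild-type and 30.7% in the knockout-labelled library when thinned to 500 UMIs, 59.7% in the latter at 1500 UMIs, and 61.7% and 63.6% without thinning. The knockout-labelled CD8 T share was 2.99% at 1500 UMIs and 4.05% without thinning, and the Trdc T share was 25.4% without thinning in the wild-type and 5.10% at 500 UMIs in the knockout-labelled library. Fewer or more UMIs per cell set these shares by construction. Of 80 member levels, stricter gates moved 18 and looser gates 10 beyond their intervals. Leaving out the tenth of cells with the highest Scrublet scores, an alternative chosen after seeing the data, moved 11, all lower, and leaving out the cell with most UMIs of each gene, chosen likewise, moved 10, all lower. No paired analysis was possible because each group has 1 library. Depth (median 1824 and 2064.5 UMIs per cell) limits detection, and a cell without a UMI may still carry the RNA.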
